A study of Drosophila melanogaster with 3 samples.

Results

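Nucleoporins are the proteins that build the nuclear pore complex, the channel through which proteins and RNA pass between nucleus and cytoplasm. A scaffold of outer and inner rings holds the pore in the envelope, nucleoporins rich in phenylalanine-glycine repeats fill its channel, and filaments and a basket extend into cytoplasm and nucleus. In flies some nucleoporins are also known to bind chromatin away from the envelope. Many nucleoporin genes are thought to be used in most cells of the embryo, but expression was not measured here. The 26 genes described here are the protein-coding genes of the dm6 annotation whose symbol begins with Nup and a digit, together with Mtor, mbo, Ndc1, Gle1 and Elys. Mtor (Megator, the Tpr homologue of the nuclear basket) carries the symbol Mgtor in this annotation and was found through its RefSeq synonym and full name. They are 26 of 13945 protein-coding genes on chromosomes X, 2, 3 and 4.

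The data were peak lists from chromatin immunoprecipitation and sequencing (ChIP-seq) of the Dip3 protein in Drosophila melanogaster. The 1 group was whole embryos of mixed sex, aged 0 to 24 h, from a transgenic line that stably expresses Dip3 (gene Dlip3) with GFP at its C-terminus, and anti-GFP antibody recovered the bound DNA. It had 3 biological replicates and no other condition, so no test between conditions was possible. Whole embryos mix tissues and ages, and a peak may come from part of the cells. Dip3 is a protein of the MADF and BESS family known to interact with the Rel factor Dorsal. The main list is the authors' thresholded set of 3741 peaks, chosen by the irreproducible discovery rate (IDR), which scores how consistently regions rank across replicates. A gene counts here as bound when the summit of such a peak lies within 500 bp of any of its annotated starts. Each peak's signal comes from the authors' caller, and its scale changes from list to list, so replicates are set side by side by rank. The depth behind these lists is unknown, and a gene without a peak is one where none was listed. Replicate 3 stood apart, since 8812 of its 30000 regions had q values up to 0.01, whereas replicate 1 had 2480 such regions and replicate 2 had 3226. Whether the line keeps an untagged copy of Dip3 was not stated in the labels, and control samples were not analysed here.

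Sequences at the starts of 5 members come first. Those of Nup37, Nup98-96 and Nup160, which had the 3 strongest member peaks, show the DNA shared with a neighbouring gene, and Nup43 shows the weakest member peak. They were read from the Release 6 (dm6) genome on the strand of the nucleoporin gene. Capitals mark matches to any of 7 core promoter motifs searched on both strands, and none of the stretches overlaps an annotated exon. The first 3 run from one start to the other, with both start bases left out. The stretch at Nup37 (chr3R:25247515-25247657, plus strand) separates it from RpS27, and the summit is base 17. That at Nup160 (chr2L:11123568-11123776, plus strand) separates it from Csl4, and the summit is base 130. That at Nup98-96 (chr3R:23781622-23781764, minus strand) separates it from mbc, and the summit lies outside it, 46 bp downstream of the Nup98-96 start. For Nup43 the summit with 50 bases on each side is shown (chr3R:18366435-18366535, plus strand). Nup58, which had no summit within 500 bp, is given for contrast by the 150 bases before its start (chr3R:19644876-19645025, plus strand).
Nup37: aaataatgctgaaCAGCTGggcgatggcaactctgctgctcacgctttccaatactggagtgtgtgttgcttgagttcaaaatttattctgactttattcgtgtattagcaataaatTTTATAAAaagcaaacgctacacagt
Nup160: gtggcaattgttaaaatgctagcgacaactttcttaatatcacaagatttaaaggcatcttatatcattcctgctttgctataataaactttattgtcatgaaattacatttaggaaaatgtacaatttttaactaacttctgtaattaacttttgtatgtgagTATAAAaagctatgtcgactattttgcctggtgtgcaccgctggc
Nup98-96: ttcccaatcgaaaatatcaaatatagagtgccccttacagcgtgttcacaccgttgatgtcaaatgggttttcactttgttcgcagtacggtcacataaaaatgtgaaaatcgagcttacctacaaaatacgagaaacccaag
Nup43: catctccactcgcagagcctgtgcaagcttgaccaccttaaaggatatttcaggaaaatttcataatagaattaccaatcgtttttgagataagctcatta
Nup58: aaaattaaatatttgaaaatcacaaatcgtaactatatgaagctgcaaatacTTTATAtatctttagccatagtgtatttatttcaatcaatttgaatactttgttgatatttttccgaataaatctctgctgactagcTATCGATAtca

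Dip3 was found at the starts of 6 nucleoporin genes, which were Nup37, Nup98-96, Nup160, Elys, Nup62 and Nup43. That is 6 of 26 (23.1%, exact Clopper-Pearson 95% interval 8.97 to 43.6%), and 20.3% of all protein-coding genes had a bound start, so the share of the members was near the background. Of the 6 genes, 5 belong to the outer ring. This group had 5 of 9 members bound, namely Nup160, Nup37, Nup43 and Nup98-96 of the Y-shaped complex and Elys, the protein that brings this complex to chromatin in frog and human cells. Its members without a summit within 500 bp were Nup107, Nup133, Nup75 (the Nup85 homologue) and Nup44A (the Seh1 homologue). The central channel had 1 of 3 bound, Nup62, and Nup54 and Nup58 had no summit there. The inner ring had 0 of 6 (upper limit 45.9%), which were Nup154, Nup188, Nup205, Nup35 and the paralogues Nup93-1 and Nup93-2. The cytoplasmic side had 0 of 4 (upper limit 60.2%), namely Nup214, Nup358, mbo (the Nup88 homologue) and the mRNA export factor Gle1. The nuclear basket had 0 of 3 (upper limit 70.8%), Mgtor, Nup153 and Nup50, and the membrane nucleoporin Ndc1 was not bound. Differences between these groups were not tested, and each holds few genes.

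**Figure D1:**
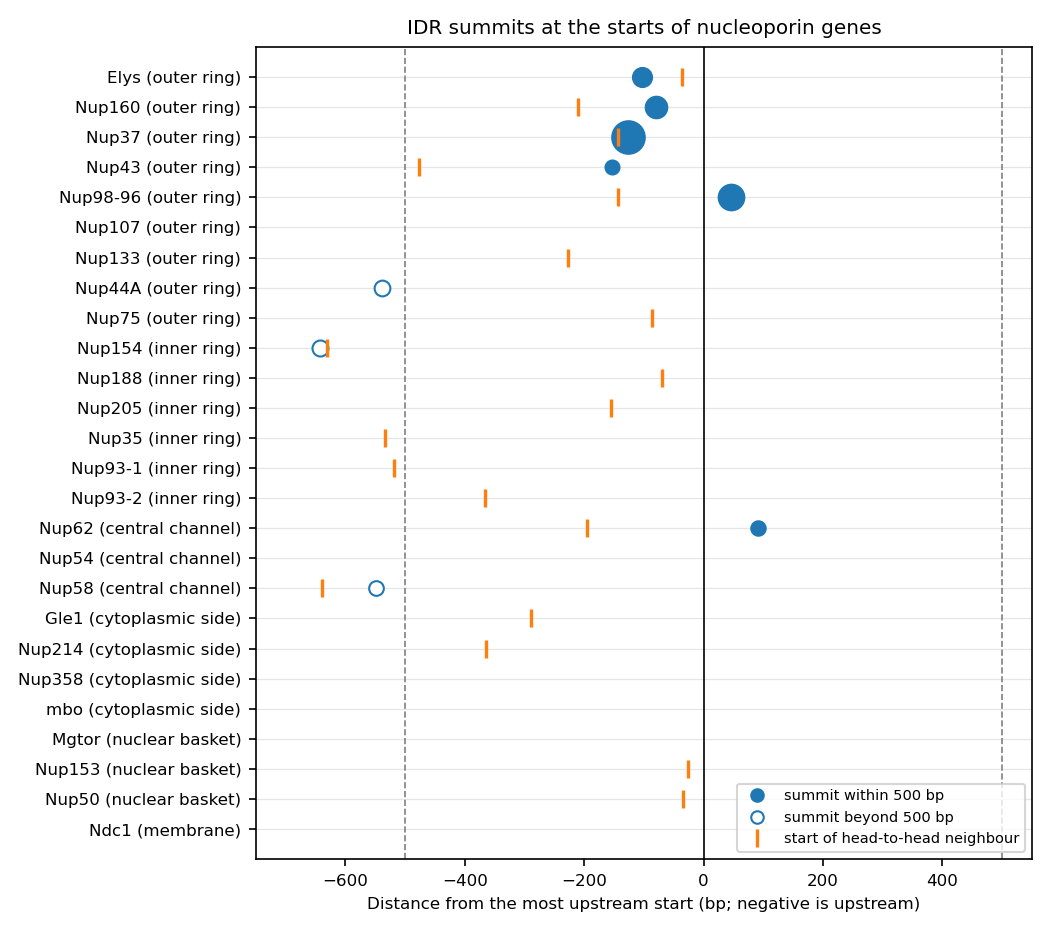
Distance in bp of IDR summits (circles, area rising with signal) from the most upstream start of each of the 26 genes, and the start of the nearest head-to-head neighbour (orange bar). The 6 filled summits lie within 500 bp (dashed lines) of a start, each beside such a neighbour, and 3 open ones lie beyond it.

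Nup37, which encodes a WD-repeat protein of the outer ring, had the strongest peak of the group. The gene (FBgn0039301) spans 25247658 to 25249100 on the plus strand of 3R, and the peak lay at 25247384 to 25247664 with a signal of 688 and rank 77 of 3741. In replicates 1, 2 and 3 it had signals of 277, 203 and 215 and ranks of 73, 80 and 93, so all 3 placed it among their strongest regions. The summit was 127 bp upstream of the nearer Nup37 start and 17 bp upstream of the start of RpS27, a protein of the small ribosomal subunit. The ribosomal protein gene was therefore the closer of the pair. Nup358, the large cytoplasmic filament protein, starts just downstream of Nup37 on the same strand, and this summit was also its nearest, at 1817 bp upstream.

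Nup98-96 encodes a precursor from which the repeat protein Nup98 and the scaffold protein Nup96 are cut. The gene (FBgn0039120) spans 23774225 to 23781621 on the minus strand of 3R, and its peak at 23781466 to 23781660 had a signal of 409 and rank 267. The replicates gave signals of 168, 136 and 92.6 and ranks of 210, 207 and 669, with replicate 3 the lowest. The summit lay 46 bp downstream of one start of the gene and 166 bp upstream of the other, and 190 bp upstream of the start of mbc, which acts in myoblast fusion.

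Nup160, an outer ring scaffold protein (FBgn0262647, 2L, 11123777 to 11129335, plus strand), had a peak at 11123502 to 11123891 with a signal of 276 and rank 604. In replicates 1, 2 and 3 it had signals of 104.8, 69.8 and 91.8 and ranks of 553, 779 and 683, so all 3 placed it alike. The summit was 80 bp upstream of Nup160 and 130 bp upstream of Csl4, a subunit of the RNA exosome. The replicate summits lay 32, 33 and 11 bp from the IDR summit.

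Elys (FBgn0031052, X, 19652305 to 19659407, plus strand) had a peak at 19652006 to 19652395 with a signal of 207 and rank 998, and replicate 3 ranked it lowest, at 2179, against 1028 in replicate 1 and 743 in replicate 2. The summit was 104 bp upstream of the nearer Elys start, in the 5′ UTR of Ranbp21, an exportin gene, 68 bp downstream of one of its starts. A pore gene and a transport receptor gene thus share 1 peak, and their nearest starts are 36 bp apart.

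The remaining pair of peaks were weak. Nup62, the repeat protein of the central channel (FBgn0034118, 2R, 16344377 to 16345828, plus strand), had a peak at 16344273 to 16344662 with a signal of 99.1 and rank 3047. Its summit fell between the gene's 2 starts, 91 bp downstream of one and 16 bp upstream of the other, and 286 bp upstream of CG7997. Replicates 1, 2 and 3 gave signals of 33.2, 23.9 and 39.9, and replicate 2 placed it at 3881, just outside its strongest 3741 regions. Nup43, another WD-repeat protein of the outer ring (FBgn0038609, 3R, 18366638 to 18367913, plus strand), had a peak at 18366290 to 18366679 with a signal of 90.0 and rank 3472. Its summit was 153 bp upstream of Nup43 and 323 bp upstream of WRNexo, an exonuclease gene. Its signals were 32.2, 26.6 and 22.6, and replicate 3 placed it far lower (8488) than replicate 1 (3054) and replicate 2 (3347).

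The 6 peaks thus ran from near the top to near the bottom of the set, with a median signal of 241, against 150 for all 2147 promoter peaks. Measured from the nearest start of the gene itself, the member summits lay at a median of 92 bp upstream, against 112 bp for all 2834 bound genes. By that measure 5 of the 6 were upstream, against 88.6% of bound genes. Measured from the nearest start of any gene, the median was 16.5 bp upstream for the 6 member peaks, against 89 bp for all promoter peaks. By that measure 4 of the 6 were upstream, with those at Elys and Nup98-96 downstream, against 84.9% of promoter peaks. In the strongest 3741 regions of every replicate were 4 of the 6 (Nup37, Nup98-96, Nup160 and Elys), against 60.9% of promoter peaks. The IDR set was made from these replicates, so this overlap is in part built in. Counted over genes, 4 of 26 members (15.4%) had a summit from the strongest regions of each replicate within 500 bp, against 12.6% of all genes.

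The distance limit left out 3 peaks. The farthest summit inside it was that of Nup43, at 153 bp, and the nearest ones outside it were 538 bp from Nup44A, 548 bp from Nup58 and 643 bp from Nup154, the Nup155 homologue. The peak near Nup154 (signal 132) lay 12 bp downstream of the start of RpL9, a large subunit ribosomal protein. That near Nup58 (signal 104) lay 92 bp upstream of Vha13, a subunit of the vacuolar proton pump. The peak near Nup44A (signal 126) was in an intron of ACC, with no other protein-coding start within 500 bp. Within 200 bp the same 6 members were bound, against 14.8% of all genes, and within 1000 bp 9 members were (34.6%), against 23.2%. No IDR summit lay inside any of the 26 genes more than 500 bp from its starts (0%, upper limit 13.2%), against 6.25% of all genes.

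Nucleoporin genes often stood head to head with another gene. A neighbour on the opposite strand started within 1000 bp upstream of 19 of 26 members (73.1%), against 35.2% of all protein-coding genes. All 6 bound members were among these 19 (31.6%), where 37.4% of all genes with such a neighbour were bound. Among the 7 members without one, none was bound (upper limit 41.0%), against 11.0% of all such genes. Neighbours of the bound members started 36 to 476 bp away, with a median of 169.5 bp. Those of the other 13 members started 26 to 640 bp away, with a median of 289 bp, so the 2 groups overlapped. Of these 13 neighbours 5 were bound at a start of their own (RpL9, pico, ReepA, Rip11 and Vha13). Bound neighbours were not counted for other genes without a bound start, so this count has no background beside it. Each of the 6 member peaks was within 500 bp of a neighbour's start, against 41.4% of all promoter peaks. Which gene of a pair a peak acts on cannot be told from its position.

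Members were also split by their number of annotated starts. Among the 5 members with more than 1 start, 4 were bound (Elys, Nup37, Nup62 and Nup98-96), against 32.8% of all such genes. Among the 21 members with 1 start, 2 were bound (Nup160 and Nup43), against 15.8% of all such genes. With the most upstream start of each gene alone the same 6 members were counted.

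**Figure D2:**
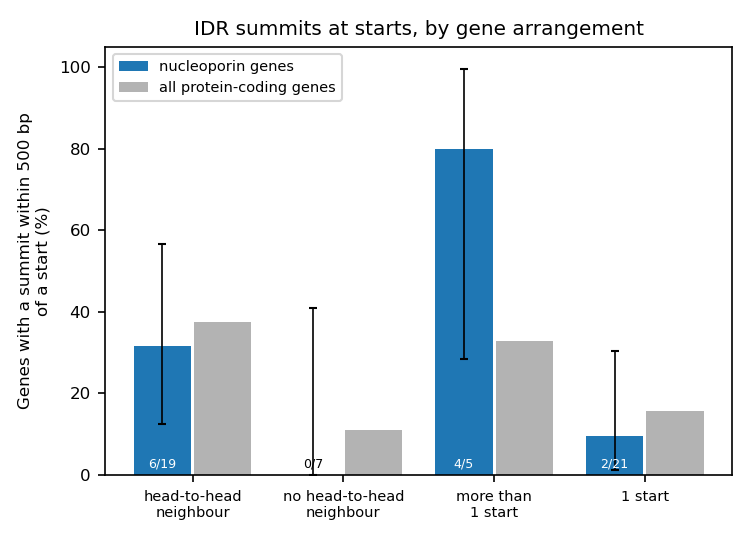
Percentage of genes with an IDR summit within 500 bp of a start, for nucleoporin genes (blue, with exact 95% intervals and counts) and all protein-coding genes (grey), by gene arrangement. Members with a head-to-head neighbour had 6 of 19 bound and those without had 0 of 7.

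In the replicates' own strongest 3741 regions, the number of members with a summit at a start was 7, 7 and 8 for replicates 1, 2 and 3. This is a mean of 28.2% ± 2.22 (SD, n = 3), against 19.3% ± 1.81 of all genes, whose shares were 17.6%, 19.0% and 21.2%. The SD is across the 3 lists for the same 26 genes and does not cover counting error. Exact intervals for the members were 11.6 to 47.8% in replicates 1 and 2 and 14.3 to 51.8% in replicate 3. A head-to-head neighbour was present for 73.1% of members but 35.2% of all genes, and these shares were not split by it. In the IDR set, 31.6% of members with such a neighbour were bound, against 37.4% of all such genes. Several members entered through 1 replicate alone. Nup93-2 ranked 2274 in replicate 1, Nup107 and Nup35 ranked 2208 and 2433 in replicate 2, and Nup205, Nup50 and Nup44A ranked 2105, 2961 and 3487 in replicate 3. The other lists placed each of these outside their strongest 3741 regions or held no region there.

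**Figure D3:**
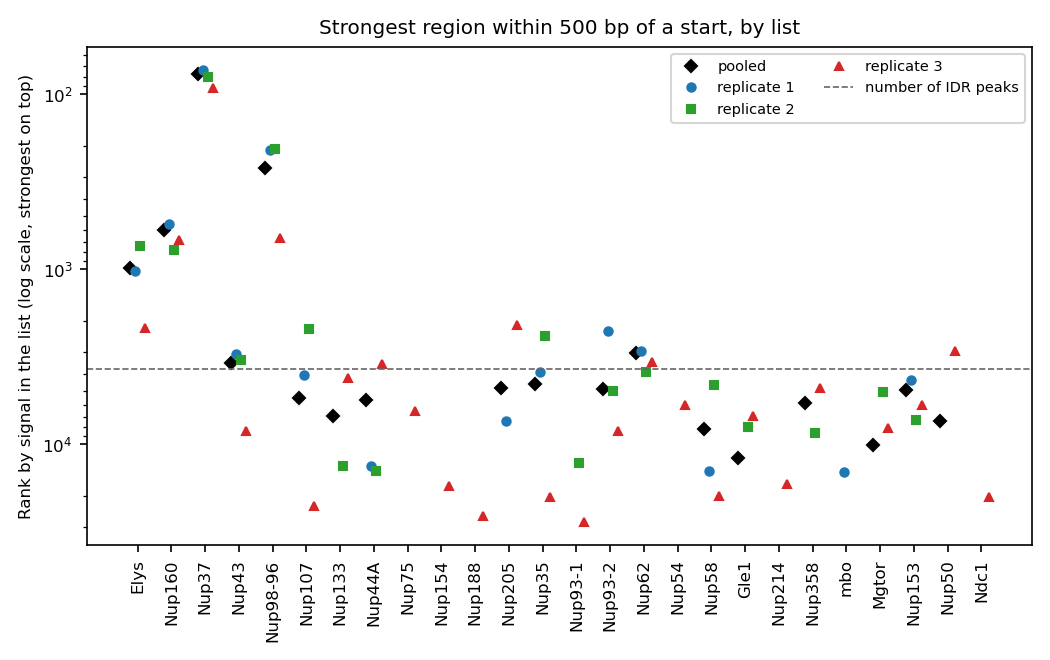
Rank by signal (log axis, strongest on top) of the strongest region within 500 bp of a start, in the pooled list and in each replicate. Genes run along the axis by role, and the dashed line marks rank 3741. Nup37, Nup98-96, Nup160 and Elys lie above the line in all 4 lists.

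The 20 members without a bound start differed in how far away the nearest IDR summit was. The distances ran between 538 and 38646 bp, with 9 of the 20 within 2000 bp. Such distances were not counted for other genes without a bound start, so these have no background beside them. Among the outer ring genes, Nup107 had a summit 1256 bp upstream, Nup133 one 4008 bp upstream and Nup75 one 6593 bp downstream. In the inner ring, Nup35 had one at 1089 bp and Nup205 at 1549 bp, both upstream, whereas Nup93-2, Nup93-1 and Nup188 had theirs 3839, 5205 and 7916 bp away. On the cytoplasmic side, Nup214 had a summit 1515 bp upstream, and those nearest to Gle1 and mbo were 16471 and 21706 bp away. Of the basket genes, Mgtor had its nearest at 12813 bp, Nup50 at 23182 bp and Nup153 at 38646 bp, the longest distance of the 26. Ndc1 had a summit 1280 bp upstream and Nup54 one 4836 bp upstream.

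Weaker regions were listed at most members. The relaxed lists include background by design, and that of the pooled alignments held a region at 18 of 26 members (69.2%), against 47.8% of all genes. Among genes with a head-to-head neighbour it held one at 14 of 19 members, against 67.8%. Below the IDR set the best ranked were Nup35 (4542), Nup205 (4804), Nup93-2 (4858) and Nup153 (4947). The regions at Nup35, Nup205, Nup93-2 and Nup153 had pooled signals of 72.7, 69.8, 69.2 and 68.1, below the lowest signal of the IDR set, 85.1. Further down were Nup107 (5489), Nup44A (5620), Nup358 (5855), Nup133 (6953), Nup50 (7373), Nup58 (8199), Mgtor (10195) and Gle1 (12128). Nup188, Nup214, Nup54, Nup75, Nup93-1, Nup154, mbo and Ndc1 had no region in that list. The relaxed lists of replicates 1, 2 and 3 held regions at 14, 17 and 25 members, against 39.0%, 46.6% and 58.1% of all genes. In replicate 3 mbo was the 1 member without a region, and all 19 members with a head-to-head neighbour had one, against 80.1% of such genes. At a q value of 0.01 or less the counts were 5, 6 and 17 members, against 13.9%, 17.2% and 37.4% of all genes. The counts at this q value were not split by head-to-head neighbour. Of the members without a region in the pooled list, those found in replicate 3 alone were Nup54 (6008), Nup75 (6522), Nup214 (16939), Nup154 (17357), Ndc1 (20149) and Nup188 (25962). Nup50 was found in replicate 3 (2961) and in the pooled list, but in neither replicate 1 nor replicate 2. Replicate 3 thus listed more regions at members and at all genes alike.

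**Figure D4:**
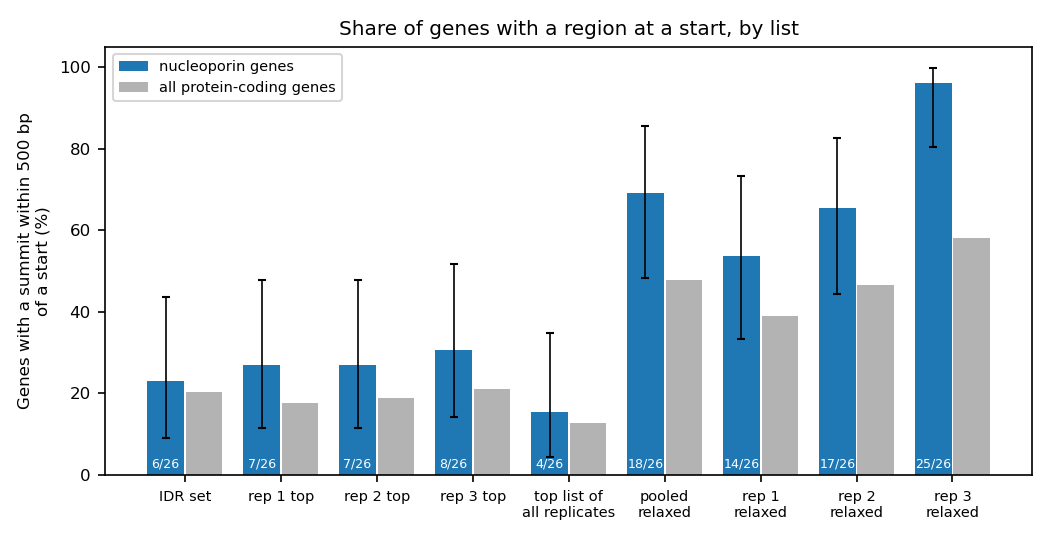
Percentage of nucleoporin genes (blue, with exact 95% intervals and counts) and of all protein-coding genes (grey) with a summit within 500 bp of a start, in the IDR set, the strongest 3741 regions of each replicate (top) and the relaxed lists. The IDR set has 6 of 26 members and the relaxed list of replicate 3 has 25 of 26.

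Short core promoter words were searched for at the members. They were TATCGATA (bound by DREF), CGATA (the BEAF-32 core, which lies within TATCGATA), CATCNCTA or CAGCNCTA (Ohler motif 7), GGTCACAC (the core of Motif 1), CAGCTG (an E-box), TATAAA (the TATA box) and GAGAG (GAGA factor). In windows reaching 50 bp to each side of the 6 summits TATCGATA was found 0 times, and it was in 4.75% of the windows at all promoter peaks. CGATA was also in 0 of 6, against 26.7%. The E-box at Nup37 was centred 1 bp from the summit, as the capitals in its sequence show, and 5.96% of promoter peaks hold one in this window. At Elys the word CATCGCTA, a form of Ohler motif 7, was centred 20 bp from the summit, and 5.64% of promoter peaks hold this motif. Nup160 had TATAAA 37 bp from its summit and Nup98-96 had it 43 bp away, outside the stretch printed, against 16.5% of promoter peaks. At Nup98-96 the word was upstream of a summit that lay 46 bp downstream of the most upstream start. It therefore fell just inside the gene and not before that start. GGTCACAC and GAGAG were in none of the 6 windows, against 2.33% and 9.46%. A missing match says only that these letters are not in the window.

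In the 300 bp around the most upstream start of each gene (250 bp before it and 50 bp after it) TATCGATA was found at 6 members, none of them bound. They were Mgtor, Nup188, Nup50, Nup54, Nup58 and Nup75. That is 0 of 6 bound and 6 of 20 other members, whereas over the genome 15.2% of bound and 7.88% of other genes had it, and 9.36% of all. In the Nup58 sequence it begins at base 140 of 150, close to the start. CGATA was in 2 of 6 bound and 12 of 20 other members, against 57.2% of bound and 44.8% of other genes (all 47.4%). Ohler motif 7 was in 1 of 6 bound (Elys) and 5 of 20 other members, against 18.1% and 7.61% (all 9.75%). GGTCACAC was in 2 of 6 bound (Nup160 and Nup43) and 2 of 20 other members (Ndc1 and Nup93-2), against 11.4% and 6.77% (all 7.70%). TATAAA was in 5 of 6 bound and 10 of 20 other members, against 44.7% and 46.0% (all 45.8%). The E-box was in 1 of 6 bound and 3 of 20 other members, against 22.9% and 16.3% (all 17.7%). GAGAG was in 3 of 6 bound (Elys, Nup62 and Nup98-96) and 1 of 20 other members (Nup54), against 28.3% and 30.1% (all 29.7%). These counts were not tested.

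Genes of neighbouring pathways were counted in the same way. The nuclear transport factors had a bound start in 11 of 23 cases (47.8%, 95% interval 26.8 to 69.4%), against 20.3% of all genes. Of all genes with a head-to-head neighbour within 1000 bp 37.4% were bound, and the related lists were not split by such neighbours. The highest signals were at RanGAP, the GTPase activator of Ran (582), Kap-alpha3, an importin alpha (469), msk, importin 7 (385), and Tnpo-SR, which imports splicing factors (318). Ranbp21 counts in this list through the peak it shares with Elys. Of the 11 bound genes, Karybeta3 and Ntf-2 alone had a peak with no other gene's start within 500 bp. The peaks at RanGAP, Kap-alpha3 and msk were shared with Hs2st, Son and Arp3, and that at Tnpo-SR with HemK2 and Snapin. Genes of the lamina and the nuclear envelope had 7 of 12 bound, with Msp300 (993), kuk (173), klar (151) and bocks (133) at the front, but 3 of 12 within 200 bp. The mRNA export genes had 1 of 13, e(y)2 (145), and none of the pore genes Sec13, Rae1, Aladin and Gp210 was bound (0 of 4, upper limit 60.2%). Nlp, also on that last list, was bound (signal 95.7) but encodes a nucleoplasmin-like histone chaperone rather than a pore protein.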

How the data were processed

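The authors' files are peak lists on dm6, per the labels. Per the deposited descriptions of the files, regions were called on each replicate's alignments and on the pooled alignments of all 3, each with 1 further shared file, and the IDR set was derived from these 4 lists. It equals the 3741 strongest regions of the pooled list. Neither a caller nor its version is named in the labels or descriptions, and the IDR cutoff is likewise not given. Each deposited region has a signal value on a scale of its own list and a −log10 q value.

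Summits (region start plus the summit offset) were assigned to starts of protein-coding transcripts of Ensembl release 115 (BDGP6 patch 54), counted from 1. None of the deposited dm6 regions on these arms ran past an arm's end in the RefSeq Release 6 genome (0 regions). Regions of 2 lists matched at an overlap of 1 bp. Python 3.11.15, numpy 2.4.6, scipy 1.17.1 and matplotlib 3.10.9 were used, and the assignment was tested on simulated data. Intervals are exact Clopper-Pearson 95% intervals and cover counting error only. The lists on dm3 were not used here.

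Members, gene lists and motifs were chosen with earlier results of these data known, so no set test was made. All members are named, and up to 4 bound genes of each related list with the highest signal. Sequences were chosen after the values were seen, as were the splits by head-to-head neighbour and number of starts and the motif counts around the starts. Ranbp9 and Ranbp11 were matched as Ipo9 and Impbeta11, the first already in its list. Alternatives were other windows, starts, overlap criteria, list lengths and motif windows, and each replicate left out.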

Additional observations from a re-analysis of the deposited data

How the results depend on the processing

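The number of members bound in the IDR set stayed between 4 and 9 under all alternatives tried for that set. It was 4 in the upper 50% of the IDR set by signal, where Nup43 and Nup62 drop out (15.4%, against 11.7% of all genes). When any overlap of the peak with the 500 bp window counted, it was 9 (34.6%, against 21.6%). Without replicates 1, 2 and 3, keeping IDR peaks found in the strongest 3741 regions of both other replicates, it was 4, 5 and 5. These are 15.4%, 19.2% and 19.2% of members, against 14.5%, 13.6% and 14.7% of all genes. Nup37, Nup98-96, Nup160 and Elys were kept each time, which had to follow, since their peaks are in the strongest regions of all 3 replicates. The IDR set itself still rests on all 3, so this does not show what a call without a replicate would give. The mean number of members in a replicate's strongest regions was 7.33, between 7.0 and 7.5 with each replicate left out, and 3.33 among the strongest 1000. At a q value of 0.01 or less it was 9.33, from 5, 6 and 17 members, against 13.9%, 17.2% and 37.4% of all genes. For the strongest 1000 of replicates 1, 2 and 3 the shares were 11.5%, 15.4% and 11.5% of members. All genes had 6.49%, 6.70% and 6.73%, and these replicate shares were not split by head-to-head neighbour. With motif windows of 100 bp instead of 50 bp to each side, GGTCACAC and GAGAG were each at 1 member summit in place of 0, and with 25 bp TATAAA was at 0 in place of 2. Of the related lists, mRNA export genes had 2 bound within 1000 bp in place of 1, and lamina and envelope genes 3 within 200 bp in place of 7. The 26 genes give wide intervals, depth is unknown, and a peak shared by a pair of genes counts for both. No paired analysis was possible because there is 1 group.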
